A study of Mus musculus with 30 samples.

Results

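Hippocampal expression of 10 genes that encode microtubule-associated proteins (MAPs) and tau kinases was compared between socially isolated (SI) and group-housed (GH) mice. The members were the MAP genes Map2, Mapt, Map1a, Map1b and Map4 and the kinase genes Ttbk1, Ttbk2, Mark1, Mark2 and Cdk5. All 10 were found by Ensembl gene ID among the 17477 genes of the count table, and all 10 passed the filter on low counts in each comparison. The group was chosen on measured values, because Map2 and Ttbk1 were lower under SI than under GH. Differences of the members between SI and GH are therefore given as a description. Counts of members called in that contrast are printed only beside the share of all genes called, and are no test of the group.

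RNA was taken from frozen hippocampus of adult C57 BL/6J mice, and mRNA libraries were made after polyA selection. SI mice were single-housed from weaning, and GH mice shared a cage and were the controls. Which GH mice shared a cage is not given in the sample names, and every test treated each mouse as independent. No mouse carried an engineered allele or received a drug. There were 8 SI and 7 GH females, numbered 41 to 79, and 7 SI and 8 GH males, numbered 1 to 39, each mouse being 1 library.

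MAPs bind the wall of the microtubule and set its stability and spacing. MAP2 is the main MAP of dendrites, tau (encoded by Mapt) that of axons, MAP1B is abundant in growing neurites, MAP1A in mature neurons, and MAP4 is found in neurons and in other cells. Tau tubulin kinases (Ttbk1 and Ttbk2), microtubule affinity-regulating kinases (Mark1 and Mark2) and Cdk5 phosphorylate tau and other MAPs, and phosphorylation by the MARK kinases releases them from the microtubule. TTBK2 is also known for its role in building the primary cilium.

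Promoter windows of 300 bases around the RefSeq start site (build GRCm38.p6) were found for 8 of the 10 members, with 12 windows in all. Those of Map2 and Ttbk1 are shown because the group was chosen on these genes and their levels varied together across mice. Those of Map1a and Map1b are shown because these long transcripts went apart in some libraries. Each is printed 5′ to 3′ on the strand of the gene, and capitals mark matches on either strand to 4 motifs, the GC box (GGGCGG), the CCAAT box (CCAAT), the TATA box (TATAAA) and the cAMP response element (TGACGTCA).
Map2, chr1:66175079-66175378, plus strand: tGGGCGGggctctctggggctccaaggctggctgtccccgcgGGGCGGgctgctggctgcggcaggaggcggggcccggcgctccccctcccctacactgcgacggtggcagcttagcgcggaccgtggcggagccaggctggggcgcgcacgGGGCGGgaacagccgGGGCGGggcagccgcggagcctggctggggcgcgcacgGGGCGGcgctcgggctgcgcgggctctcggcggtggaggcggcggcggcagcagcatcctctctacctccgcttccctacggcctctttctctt
Ttbk1, chr17:46487626-46487925, minus strand: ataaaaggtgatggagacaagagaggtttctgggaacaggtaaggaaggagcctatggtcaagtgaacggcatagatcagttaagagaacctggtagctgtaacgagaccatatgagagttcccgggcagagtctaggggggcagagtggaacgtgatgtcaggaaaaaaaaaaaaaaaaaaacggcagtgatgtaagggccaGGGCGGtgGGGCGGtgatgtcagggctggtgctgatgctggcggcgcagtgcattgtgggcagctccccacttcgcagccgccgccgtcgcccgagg
Map1a, chr2:121289352-121289651, plus strand: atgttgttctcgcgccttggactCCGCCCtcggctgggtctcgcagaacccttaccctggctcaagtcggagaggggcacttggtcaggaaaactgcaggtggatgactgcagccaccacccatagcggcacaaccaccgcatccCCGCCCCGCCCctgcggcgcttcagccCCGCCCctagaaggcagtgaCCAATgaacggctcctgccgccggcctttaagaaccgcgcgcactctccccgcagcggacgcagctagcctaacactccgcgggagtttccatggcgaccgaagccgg
Map1b, chr13:99516553-99516852, minus strand: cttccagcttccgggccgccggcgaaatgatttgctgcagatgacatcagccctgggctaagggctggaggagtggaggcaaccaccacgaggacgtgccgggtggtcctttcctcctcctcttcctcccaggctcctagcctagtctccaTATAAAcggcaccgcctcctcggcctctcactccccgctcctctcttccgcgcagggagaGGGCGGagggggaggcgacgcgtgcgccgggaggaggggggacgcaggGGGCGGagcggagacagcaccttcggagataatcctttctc
The Map2 window had 77.7% GC, 37 CpG dinucleotides and 5 GC boxes. The Ttbk1 window had 55.0% GC, 15 CpG and 2 GC boxes, beside a run of A. The Map1a window had 65.7% GC, 27 CpG, 4 GC boxes (2 of them overlapping each other) and 1 CCAAT box. The Map1b window had the same GC content of 65.7%, 23 CpG, 2 GC boxes and 1 TATA box. All 32851 RefSeq windows had a median of 52.7% GC and 7 CpG. Of these, 35.66% held the GC box, 37.41% the CCAAT box, 13.62% the TATA box and 1.79% the cAMP response element, which was in none of the 4 windows shown. A match is a match of letters only.

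Total counts were from 18809307 to 100844898 per library. SI males 25, 33 and 39 stood apart from the other 27 libraries. On the first principal component (39.8% of the variance) they lay between 74.61 and 112.57, against -28.24 to 19.22. The slope of a library's log2 expression, relative to the mean library, on log2 transcript length was -0.476 to -0.365 in these 3 and -0.13 to 0.18 in the others, so long transcripts were underrepresented in them. SI male 38 stood apart in the slope on percent GC of the transcript, at 0.0288 against -0.01 to 0.0121 in every other library. The part of GC content in the values of SI 38 was not tested. Summed CPM (counts scaled to library size) of 6 microglia markers were 338.7 to 417.7 in the 3 males and at most 292.9 in any other library, and those of 5 thalamus markers were 111.9 to 141.5 and at least 208.7. Sums of the other lists in the 3, in the other 4 SI males and in GH males were 5258 to 5560, 5611 to 7188 and 5520 to 6406 CPM for neurons, 836 to 877, 968 to 1389 and 882 to 1305 CPM for dentate and pyramidal neurons, and 2782 to 3293, 3045 to 4842 and 4019 to 5482 CPM for astrocytes. For oligodendrocytes they were 8187 to 10620.0, 5135 to 7907 and 5875 to 7793 CPM, for choroid plexus 2150.0 to 4173, 42.0 to 2157 and 42.7 to 2242 CPM, and for striatum 128 to 139, 91.5 to 152 and 93.8 to 139 CPM. The 3 males were thus below the other males for dentate and pyramidal neurons and above them for oligodendrocytes, and no marker was at 0 counts in any library. The part of these lists in the members' values was not tested. Fits of the members in males are given with and without these 3 mice. Fits of all gene lists in males are given only with them. Because whole tissue was sequenced, fewer cells of a type and less RNA per cell cannot be told apart.

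To compare members with each other, CPM were divided by the length of the longest transcript in kilobases (kb). In GH females, the median level was highest for Map2 at 206.6 CPM per kb, then Map1a at 138.0, Map4 at 124.4, Mapt at 88.9 and Map1b at 63.2. Among the kinases it was 40.9 CPM per kb for Cdk5, 36.1 for Ttbk1, 21.3 for Mark2, 12.3 for Mark1 and 5.96 for Ttbk2. The order in GH males was the same, from 161.7 CPM per kb for Map2 to 5.69 for Ttbk2. The ranges over mice of Map2 and Map1a and of Map1a and Map4 overlapped in both sexes, so the order within these pairs was not resolved beyond the spread between mice. The ranges of Map1b and Cdk5 and of Cdk5 and Ttbk1 overlapped in females, and those of Mapt and Map1b in males, where Map4 and Mapt met at 101.9 CPM per kb. Ttbk1, Mark2, Mark1 and Ttbk2 followed each other without overlap in either sex.

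**Figure D1:**
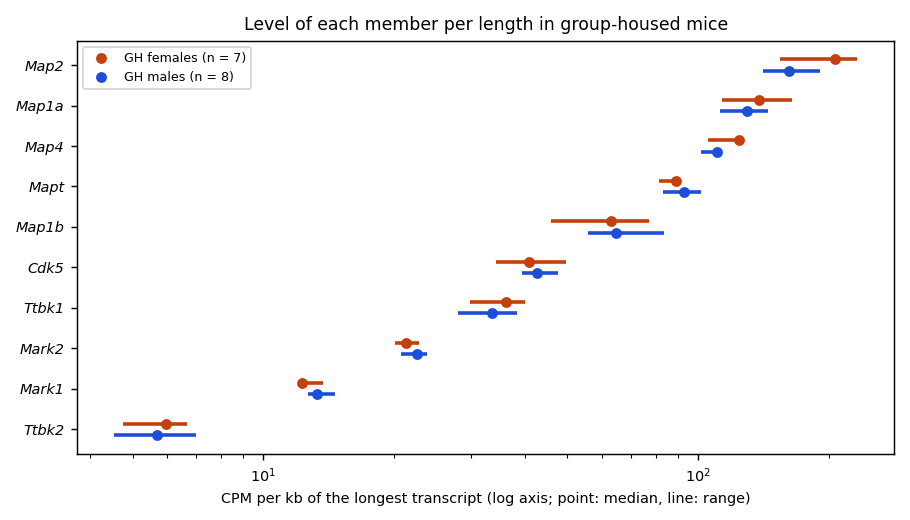
Levels of the 10 members in GH mice, in CPM per kb of the longest transcript on a log axis, with points for group medians and lines for the range over 7 females and 8 males. Map2 had the highest median in both sexes (206.6 and 161.7 CPM per kb) and Ttbk2 the lowest (5.96 and 5.69).

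Among the MAPs, Map2 (ENSMUSG00000015222, chromosome 1 of NCBIM37 from 66221847 to 66489157) was lower under SI in both sexes. In females, the lowest, median and highest values were 834, 957 and 1084 CPM under SI and 968, 1293 and 1456 CPM under GH. SI mice 45, 49, 53 and 63 lay below every GH female, and 5 of 7 GH females lay above every SI female. The fitted Log2FC of SI against GH was -0.28 (SE 0.063). In males, SI mice 25, 33 and 39 had 391, 403 and 497.5 CPM, SI 38 had 495 CPM, and SI 7, 8 and 27 had 863, 1120 and 964 CPM. GH males had a lowest, median and highest value of 885, 1012 and 1197 CPM. Thus 5 of 7 SI males lay below every GH male, with SI 38 as low as SI 39. The Log2FC in males was -0.42 (SE 0.127).

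Map1a (ENSMUSG00000027254, chromosome 2 from 121115336 to 121136568), of the mature neuron, was also lower in SI females. Its lowest, median and highest values were 1183, 1441 and 1643 CPM under SI and 1344, 1632 and 1951 CPM under GH, with a Log2FC of -0.18 (SE 0.0579). Only SI 49 and SI 53 lay below all GH females, so the groups overlapped more than for Map2. In males, SI 25, 33 and 39 had 660, 712 and 759 CPM, far below the 1226 CPM of SI 38, the next lowest of all males. SI 7, 8 and 27 had 1605, 1773 and 1361 CPM, within or above the GH range of 1327 to 1713 CPM. The Log2FC in males was -0.17 (SE 0.0602).

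Map4 (ENSMUSG00000032479, chromosome 9 from 109833962 to 109986451) had an SD of 26.1 CPM in SI females, 52.5 CPM in GH females, 23.9 CPM in GH males and 93.05 CPM in SI males. SI females had a lowest, median and highest value of 619.6, 657 and 683 CPM, and GH females 640.4, 757 and 769 CPM. GH females 47, 48, 54, 71 and 79 lay above every SI female, and the Log2FC was -0.12 (SE 0.0407). In males, Map4 was 463, 484.5 and 514 CPM in SI 25, 33 and 39 and 577 CPM in SI 38. The other 3 SI males had 659.9 to 684 CPM, within the GH range of 619.8 to 692 CPM, and the Log2FC was -0.09 (SE 0.056).

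Map1b and Mapt did not share this direction. Map1b (ENSMUSG00000052727, chromosome 13 from 100191419 to 100286557) had a lowest, median and highest value of 621, 747 and 1188 CPM in SI females and 544, 749.7 and 913 CPM in GH females, with a Log2FC of 0.02 (SE 0.0945). SI 45 had the highest value of any female, 1188 CPM, and the other SI females lay within the GH range. In males, SI 25, 33 and 39 had 2097, 1636 and 1108 CPM, SI 7, 8, 27 and 38 had 1165, 944, 722 and 958 CPM, and GH males had 662, 767 and 989.9 CPM as lowest, median and highest value. SI males 7, 25, 33 and 39 were above every GH male, and the Log2FC was 0.29 (SE 0.16). For Mapt (ENSMUSG00000018411, chromosome 11 from 104092704 to 104193404), SI females had 419, 453 and 519 CPM and GH females 428, 467 and 477 CPM as lowest, median and highest value, with a Log2FC of -0.02 (SE 0.0479). Mapt was 881, 742 and 624.5 CPM in SI males 25, 33 and 39, which is above all other libraries, and 567, 494, 460.3 and 593 CPM in SI 7, 8, 27 and 38. GH males had 437, 489 and 535 CPM, and the Log2FC was 0.17 (SE 0.0858).

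**Figure D2:**
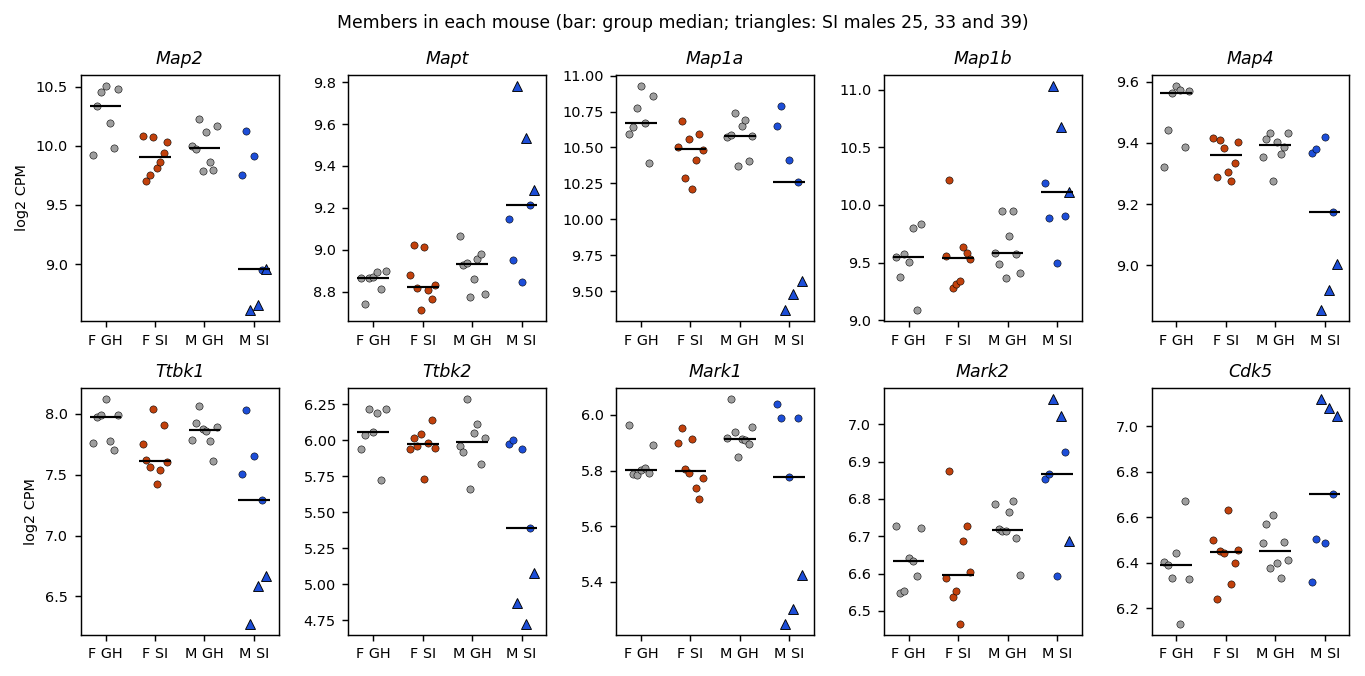
Log2 CPM of each member in each of the 30 mice, by sex (F, M) and housing, with bars for group medians and triangles for SI males 25, 33 and 39. Map2 and Ttbk1 are lower in most SI mice than in GH mice of the same sex, and the 3 triangles lie at the bottom for Map1a, Map4, Ttbk1, Ttbk2 and Mark1 and at the top for Mapt and Cdk5.

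Of the tau kinases, Ttbk1 (ENSMUSG00000015599, chromosome 17 from 46579397 to 46624624), which is expressed mainly in neurons, was lower under SI. SI females had a lowest, median and highest value of 172, 195 and 264 CPM and GH females 208, 251 and 279 CPM. Below every GH female were 5 of 8 SI females, whereas SI 52 with 264 CPM was above all but 1 of them, and the Log2FC was -0.15 (SE 0.0624). In males, SI 25, 33 and 39 had 77.6, 95.8 and 102 CPM, and SI 7, 8, 27 and 38 had 182, 262, 202 and 157 CPM. GH males had 196, 234 and 267 CPM as lowest, median and highest value, so 5 of 7 SI males were below all of them. The Log2FC in males was -0.37 (SE 0.0935).

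Ttbk2 (ENSMUSG00000090100, chromosome 2 from 120558552 to 120676340) overlapped between housing groups in females, with 53.1, 62.7 and 70.6 CPM under SI and 52.9, 66.5 and 74.4 CPM under GH and a Log2FC of -0.05 (SE 0.0393). In males, SI 25, 33 and 39 had 29.3, 26.5 and 33.8 CPM and SI 38 had 42.0 CPM, all below the GH range of 50.6 CPM upwards. SI 7, 8 and 27 had 61.3 to 64.1 CPM, inside it, and the Log2FC was -0.25 (SE 0.086). Mark1 (ENSMUSG00000026620, chromosome 1 from 186720322 to 186823428) had a Log2FC of -0.03 (SE 0.039) in females, with medians of 55.6 CPM under SI and 55.8 CPM under GH, and -0.05 (SE 0.0564) in males. It was 38.1, 39.5 and 43.0 CPM in SI males 25, 33 and 39, and 54.8 to 65.8 CPM in the other 4 SI males against 57.5 to 66.6 CPM in GH males.

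Mark2 and Cdk5 are the remaining kinases. Mark2 (ENSMUSG00000024969, chromosome 19 from 7349886 to 7416350) had medians of 96.7 CPM under SI and 99.2 CPM under GH in females, with a Log2FC of 0.00 (SE 0.0391), and 2 SI females lay below and 1 above every GH female. SI males 7, 8, 25, 33 and 38, with 115.6 to 134 CPM, were above the highest GH male at 111 CPM, and SI 39 (103 CPM) and SI 27 (96.5 CPM) were not. The Log2FC in males was 0.09 (SE 0.0716). Cdk5 (ENSMUSG00000028969, chromosome 5 from 23924068 to 23929348), the shortest member with a transcript of 2050 bases, had medians of 87.3 CPM in SI and 83.8 CPM in GH females. Its Log2FC was 0.04 (SE 0.0341) in females and 0.09 (SE 0.0578) in males. In SI males 25, 33 and 39 it was 139, 135 and 132 CPM, above all other libraries, which had at most 104 CPM.

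By edgeR's quasi-likelihood test with surrogate variables in the model, 1 of 10 members, Map2, was called in females at a Benjamini-Hochberg adjusted p under 0.05, where 3.89% of all genes tested were called. At an unadjusted p under 0.05 there were 4 members (20.2% of all genes), and all 4, Map2, Map1a, Map4 and Ttbk1, were lower in SI (11.0% of all genes). In males, 0 members and 0.0% of all genes were called at the adjusted threshold by edgeR, whereas DESeq2 with the same surrogate variables called 1 member, Ttbk1, and 0.278% of all genes. At an unadjusted p under 0.05 there were also 4 members in males (13.0% of all genes), and Map2, Map1a, Ttbk1 and Ttbk2 were each lower in SI (7.38% of all genes). In females, 0 members were called by edgeR without surrogate variables or with the position digit of the sample names in their place, and 3 by DESeq2, which called 7.87% of all genes, and leaving out single mice gave 0 to 4 (Map2 lost its call without SI 45, 49, 63 or 68 or GH 48, 54 or 71). Since this contrast chose the group, these counts are printed beside the shares of all genes and nothing is read from them. The median Log2FC of the 10 members was -0.04 in females and -0.07 in males, beside 0.01 and 0.00 for all genes tested.

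**Figure D3:**
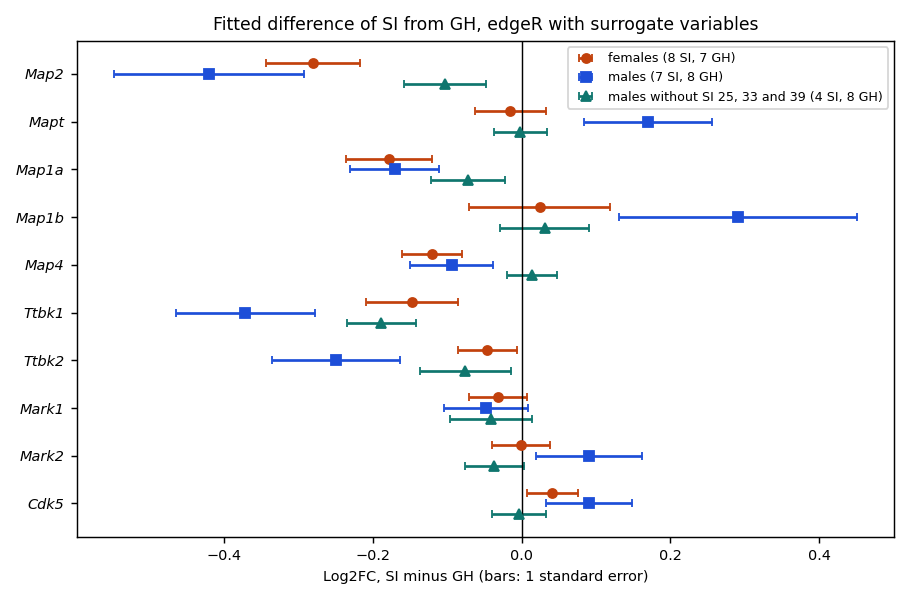
Fitted Log2FC of SI against GH with its standard error for each member in females, in males, and in males without SI 25, 33 and 39. Map2 lies at -0.28, -0.42 and -0.10 and Ttbk1 at -0.15, -0.37 and -0.19, whereas Mapt lies at -0.02, 0.17 and 0.00 and Map1b at 0.02, 0.29 and 0.03. Without surrogate variables the males without these 3 mice gave 0.14 for Mapt and 0.25 for Map1b.

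In females, marker lists of cell types went in different directions between SI and GH. All 7 astrocyte markers had a Log2FC below 0 in females and 4 were called (0 by edgeR without surrogate variables, where 0 of all genes were called), with summed levels of 3613, 4254 and 5016 CPM (lowest, median and highest) under SI and 4254, 5396 and 5947 CPM under GH. All 8 neuron markers had a Log2FC above 0 in females and 1 was called, with sums of 5294, 5658 and 6508 CPM under SI and 4969, 5264 and 5783 CPM under GH. In males 0 markers of either list were called by edgeR, with 1 astrocyte and 3 neuron markers at an unadjusted p under 0.05. All 6 oligodendrocyte and all 6 microglia markers had a Log2FC below 0 in females, and all 7 choroid plexus markers one above 0. Also above 0 in females were 7 of 8 dentate and pyramidal, 3 of 5 thalamus and 5 of 6 striatum markers. In the lists of dentate and pyramidal neurons, oligodendrocytes, microglia, choroid plexus, thalamus and striatum 0 genes were called in either sex by edgeR, with at most 3 of a list at an unadjusted p under 0.05. Lists with 3 were dentate and pyramidal neurons in females and thalamus in males, all higher in SI in these fits with surrogate variables. Summed thalamus levels, without such variables, had medians of 234.6 CPM in SI males and 227.9 CPM in GH males. SI males 25, 33 and 39, with 111.9 to 141.5 CPM, lay below the GH range of 208.7 to 246.5 CPM. The part of cell composition in the members' values was not tested.

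Without SI males 25, 33 and 39, the Log2FC of Map2 in males was -0.10 (SE 0.0553), that of Ttbk1 -0.19 (SE 0.046), that of Ttbk2 -0.08 (SE 0.0615) and that of Map1a -0.07 (SE 0.0493). Map1b was then at 0.03 (SE 0.0594), Mapt at 0.00 (SE 0.0352) and Map4 at 0.01 (SE 0.0331). This fit of 4 SI and 8 GH males had 4 surrogate variables, and in it Ttbk1 had the largest difference of the members. In a fit without surrogate variables, added after seeing the data, the Log2FC was -0.25 (SE 0.158) for Map2, 0.25 (SE 0.132) for Map1b, -0.20 (SE 0.113) for Ttbk1, 0.14 (SE 0.0822) for Mapt and -0.14 (SE 0.118) for Ttbk2. Map2 and Map1b were then further from 0 than Ttbk1, so the order of the members and the values of Map2, Map1b and Mapt in these males depended on the surrogate variables.

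The 3 males differed from the rest in both directions. There were 5 members (Map1a, Map4, Ttbk1, Ttbk2 and Mark1) below all other 27 libraries, 2 (Mapt and Cdk5) above all of them, and 3 (Map2, Map1b and Mark2) that overlapped with them. The share of all genes that lay apart in these 3 mice was not counted. These numbers are therefore not read as a trait of the members. Map1a and Map1b have transcripts of 11825 and 11852 bases. In these mice Map1a was at 660 to 759 CPM and Map1b at 1108 to 2097 CPM. Their log2 ratio per kb was 0.75 to 1.17 in GH males and 0.36 to 0.92 in the other 4 SI males, and it was -1.66, -1.20 and -0.54 in the 3. Across the 15 GH mice, centred on the mean of each sex, log2 CPM of both genes went up with the length slope of the library (Pearson's r 0.713 for Map1a and 0.957 for Map1b). The correlation with the slope in GH mice was 0.853 for Ttbk2, 0.366 for Map2, 0.236 for Ttbk1 and -0.904 for Cdk5. Across the 15 SI mice it was 0.803 for Map2, 0.853 for Ttbk1 and -0.445 for Map1b. Without the 3 males these were 0.344, 0.296 and 0.676. These r values describe mice that share the normalization and depth of their own library, and no p is given. The part of transcript length in the members' values was not tested.

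**Figure D4:**
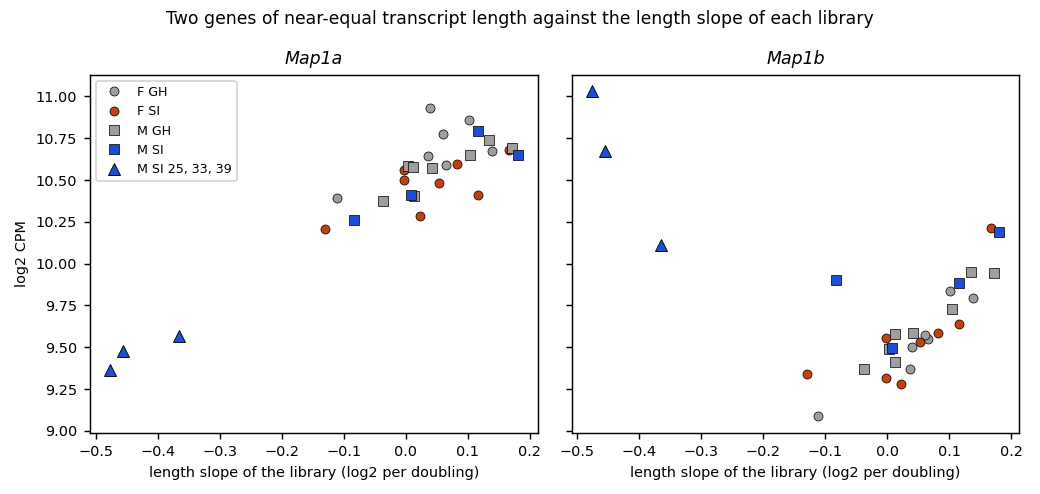
Log2 CPM of Map1a and Map1b in each of the 30 libraries against the slope of the library's log2 expression on log2 transcript length, with circles for females, squares for males and triangles for SI males 25, 33 and 39. The triangles (slope -0.476 to -0.365) are the lowest points for Map1a and lie high for Map1b.

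To look at the members apart from isolation, GH females were compared with GH males. By edgeR 0 of 10 members and 1.17% of all genes were called at an adjusted p under 0.05, and 2 members were at an unadjusted p under 0.05 (17.4% of all genes). These were Map2, higher in GH females by a Log2FC of 0.23 (SE 0.0805, edgeR adjusted p = 0.153), and Map4, with 0.09 (SE 0.0398, edgeR adjusted p = 0.242). DESeq2 with the same surrogate variables also called 0 members, and 3.67% of all genes. The 7 GH females are the ones against which SI females were set, so a high Map2 level in them enters both comparisons. Here too marker lists differed, since all 7 astrocyte markers had a Log2FC above 0 in GH females, 2 of them called, and all 8 neuron markers were below 0 with 0 called by edgeR and 7 at an unadjusted p under 0.05. All 5 thalamus, 6 oligodendrocyte and 6 microglia markers were above 0, with 4, 3 and 1 at an unadjusted edgeR p under 0.05. Below 0 were 6 of 8 dentate and pyramidal, 6 of 7 choroid plexus and 2 of 6 striatum markers. The part of these lists in the sex difference of Map2 was not tested.

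Ratios within a library do not depend on its size. The log2 ratio of Map1a to Map1b per kb was 1.17 ± 0.191 (SD, n = 7) in GH females and 0.944 ± 0.148 (SD, n = 8) among GH males. They differed by 0.223, with p = 0.0277 in an exact permutation test over all 6435 relabellings (two-sided) and p = 0.083 after adjustment over the 3 ratios tested. Above every male lay 4 of 7 females. The ratio of Ttbk1 to Ttbk2 was 2.53 ± 0.158 and 2.55 ± 0.17 (SD), with a difference of -0.021 (exact permutation p = 0.814, adjusted p = 0.912), and that of Mark1 to Mark2 was -0.764 ± 0.033 and -0.76 ± 0.095 (SD), with a difference of -0.004 (exact permutation p = 0.912, adjusted p = 0.912). No ratio passed the adjusted threshold.

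An interaction term, fitted to the 30 mice together, asked whether the housing difference itself differed between the sexes. By edgeR 0 members and 0.0% of all genes were called, DESeq2 called 0 members and 0.0427% of all genes, and 1 member was at an unadjusted p under 0.05 by edgeR (7.48% of all genes). This was Map1b, with -0.40 (SE 0.191, edgeR adjusted p = 0.661), that is, a lower Log2FC of SI in females than in males. Without SI males 25, 33 and 39 it was -0.11 (SE 0.113). Map4 was then at -0.14 (SE 0.0478, edgeR adjusted p = 0.408), more negative in females. For Map2 and Ttbk1 the interaction with all mice was 0.04 (SE 0.132) and 0.17 (SE 0.124). The group was chosen because these genes were lower under SI. Their interaction values are therefore a description and no test of a difference between the sexes.

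Some members varied together within the housing groups and others did not. Across the 15 GH mice, centred on the mean of each sex, Pearson's r of log2 CPM with Map2 was 0.832 for Ttbk1, 0.813 for Map4, 0.811 for Map1a and 0.719 for Ttbk2. It was 0.361 for Map1b, -0.008 for Mapt, -0.067 for Mark1, -0.232 for Mark2 and -0.385 for Cdk5. Cdk5 had a negative r with every other member. Map1b was highest where Ttbk2 was high (r = 0.84) and Cdk5 low (r = -0.829). In the 12 SI mice other than the 3 males, Map2 had r = 0.741 with Ttbk1, 0.815 with Map4 and 0.585 with Map1a, and -0.663 with Mapt. With the 3 males included the last was -0.857. These values describe libraries of 1 set of mice and carry no p. SI 38 was among the 12 SI mice, with a Map2 level of 495 CPM against 863, 1120 and 964 CPM in SI 7, 8 and 27. No r was computed without SI 38.

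**Figure D5:**
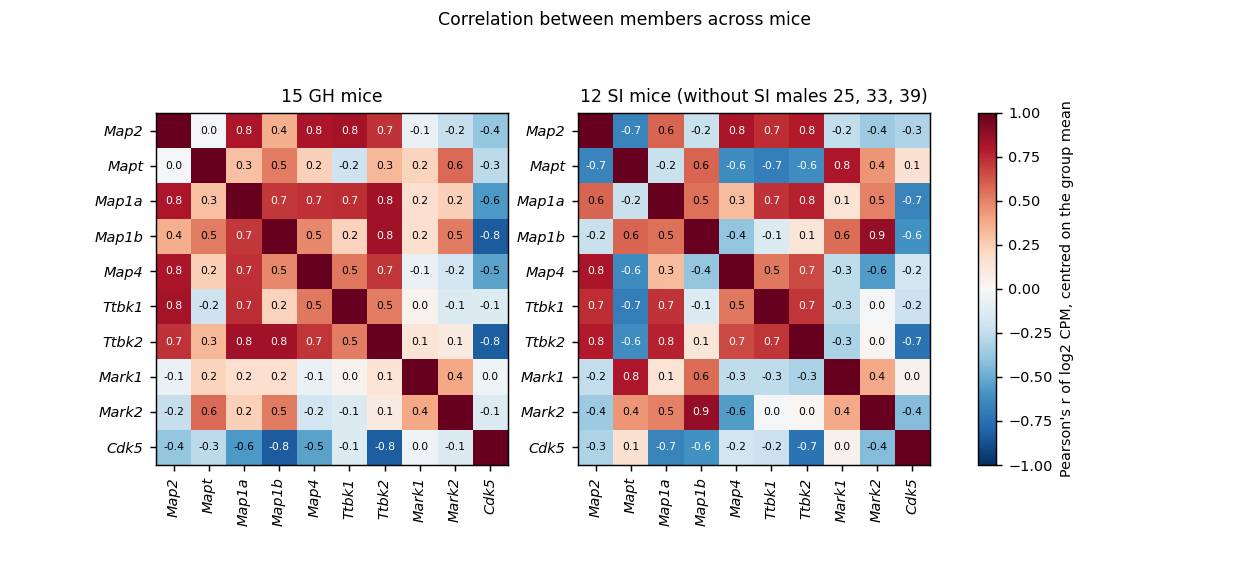
Pearson's r between members across 15 GH mice and across 12 SI mice (without SI males 25, 33 and 39), on log2 CPM centred on the mean of each group. Map2, Map4, Ttbk1 and Ttbk2 form a block of positive r in both panels, and Map2 and Mapt have r = -0.008 in GH and -0.663 in SI mice.

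Among 15770 genes tested in both sexes, the patterns most like that of Map2 across GH mice were those of Dlg2, a scaffold of the postsynaptic density (r = 0.971), Psd3 (0.939), Trim37 (0.937), Dok6 (0.931) and Dnal1 (0.927). In the 12 SI mice without the 3 males, among them SI 38 with its low Map2 level, r with Map2 was 0.973 for Dlg2 and 0.974 for Psd3. For Ttbk1, genes of the most similar pattern were Epb41l1, a protein of the membrane skeleton (r = 0.935), Frmpd3 (0.925), Shank2, a postsynaptic scaffold (0.924), and St3gal2, a sialyltransferase (0.915). In the 12 SI mice these had r of 0.959, 0.877, 0.927 and 0.908 with Ttbk1.

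Other genes of the microtubule system were described from 6 lists. In females, calls by edgeR depended on the surrogate variables, since it called 0 of 16026 genes without them (1875 at an unadjusted p under 0.05) and 0 with the position digit in their place (1915). With single mice left out, 88 (without SI 68) to 1427 (without GH 78) of all genes were called, and limma-voom with quality weights and no surrogate variables called 838. Of 26 other tau kinases and Cdk5 activators, 3 were called in females, all lower in SI, beside 3.89% of all genes. They were Brsk1 with a Log2FC of -0.27 (SE 0.0563, edgeR adjusted p = 0.0163), Camk2a with -0.24 (SE 0.0522, edgeR adjusted p = 0.0197) and Mapk3, which encodes ERK1, with -0.14 (SE 0.0375, edgeR adjusted p = 0.0448). Brsk1 encodes a kinase of neuronal polarity and Camk2a the alpha subunit of the calcium/calmodulin kinase of the postsynaptic density. The list as a whole was evenly divided, with 13 genes below and 13 above 0 and a median of 0.00. In males 0 of 26 were called by edgeR and 5 were at an unadjusted p under 0.05, 2 lower and 3 higher in SI. Among them were Csnk1e with 0.24 (SE 0.0867, edgeR adjusted p = 0.33), Camk2a with -0.25 (SE 0.0945, edgeR adjusted p = 0.33) and Prkaca with 0.14 (SE 0.0617, edgeR adjusted p = 0.359).

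Of 15 tubulins, 1 was called in females, Tubb2b, with -0.21 (SE 0.0396, edgeR adjusted p = 0.00953), a beta tubulin of developing brain. Tuba4a with 0.10 (SE 0.0341) and Tubg1 with 0.13 (SE 0.0447) did not pass. In males, 12 of 15 tubulins had a Log2FC above 0, 0 were called by edgeR and 3 were at an unadjusted p under 0.05, namely Tubb4a at 0.24 (SE 0.102), Tubb3 at 0.20 (SE 0.0921) and Tubb2a at 0.17 (SE 0.0817). Of 21 proteins that bind microtubule ends, 1 was called in females, Apc, with -0.28 (SE 0.0612, edgeR adjusted p = 0.0209), which also regulates beta-catenin. At an unadjusted p under 0.05, 2 of the 21 were lower and 2 higher in SI females. In males Apc was at -0.48 (SE 0.142, edgeR adjusted p = 0.3), and 0 of the 21 were called by edgeR with 6 at an unadjusted p under 0.05 (5 lower and 1 higher in SI). Of 20 tubulin-modifying and severing enzymes tested, 1 was called in females, Ttll4, a polyglutamylase, with 0.21 (SE 0.0563, edgeR adjusted p = 0.0499), and 0 in males by edgeR, with 2 at an unadjusted p under 0.05.

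Of 20 other structural MAPs, 0 were called in either sex by edgeR, with 0 in females and 3 in males at an unadjusted p under 0.05. Dpysl2, a tubulin-binding protein of the growing axon, had a Log2FC of 0.18 (SE 0.0924) in females and 0.23 (SE 0.0965) in males, and Tppp, a tubulin polymerization protein of oligodendrocytes, had -0.17 (SE 0.0594) in males. Of 16 tau phosphatases, 0 were called in either sex by edgeR, with 4 in females (2 lower and 2 higher in SI) and 1 in males at an unadjusted p under 0.05. That in males was Ppp2r2c, a regulatory subunit of protein phosphatase PP2A, with -0.23 (SE 0.0809), and it was at -0.14 (SE 0.043) in females. The 2 that were higher in SI females were Ppp1cc with 0.14 (SE 0.051) and Ppp3ca with 0.15 (SE 0.0569).

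Between GH females and GH males, 3 genes of these lists were called by edgeR, beside 1.17% of all genes. Calls among all genes in this contrast numbered 187, but 64 without surrogate variables and 8 with the position digit in their place. With single mice left out they ranged from 42 to 2871. Digit 3 was held by 4 of 8 GH males and 0 of 7 GH females. Tubb2b was higher in females with 0.25 (SE 0.0488, edgeR adjusted p = 0.0279), Ppp3ca, the catalytic subunit of calcineurin, was lower with -0.19 (SE 0.0452, edgeR adjusted p = 0.0499), and Nav1, a neuron navigator that binds microtubule ends, was lower with -0.21 (SE 0.0448, edgeR adjusted p = 0.0417). The 7 GH females enter both comparisons in which Tubb2b was called.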

How the data were processed

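Hippocampal mRNA of 30 mice was measured by RNA-seq. Per the labels, the submitters' processing notes name Trimmomatic 0.39, Salmon 1.8.0, DESeq2 1.24.0 and the build GRCm39 (mm39), and the authors deposited raw whole-number counts in 1 table, not normalized, with at least 100 counts for each of 17477 genes. The annotation is not given in the sources used here, so reads shared between near-identical genes cannot be judged. Column names were matched to the mice, with 0 columns of no sample. Symbols were found for 16439 genes (94.1%), and coordinates, length and GC content of the longest protein-coding transcript come from GENCODE vM1 on NCBIM37 (15964 genes, 91.3%). A member's CPM per kb therefore uses another annotation than the counts.

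The members, the gene lists and the tests were chosen with earlier results of these data known. The genes named are the members, up to 3 genes of each list with the smallest p and every gene called, and the 5 genes most like Map2 and Ttbk1, of which the result of 1 gene is not reported here.

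Counts were analysed in R 4.3.3 with edgeR 4.0.16. The low-count filter was filterByExpr with a minimum count of 10 and a total of 15, TMM set library sizes, and svaseq of sva 3.50.0 gave surrogate variables, their number set with 20 permutations and seed 1 (3 in females, 2 in males, 4 in GH mice and 4 in all mice). The study used DESeq2, which was an alternative here (version 1.42.0). Genes were tested with glmQLFit and glmQLFTest with Benjamini-Hochberg adjustment over all genes tested, at a threshold of 0.05. These numbered 16026 in females, 15833 in males, 15981 between GH groups and 16391 for the interaction. CPM used TMM over all 30 libraries and carry no such adjustment, so their ratio need not equal the fitted Log2FC. For correlations, slopes and the principal component, log2 CPM had a prior count of 2. The log2 CPM of members drawn for each mouse had no prior count. Ratios were tested by exact permutation (SciPy 1.17.1). The steps were tested on simulated counts.

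Other alternatives were leaving out the filter, requiring 10 counts in every library, DESeq2 size factors, no surrogate variables, a factor for the digit of position in the sample names (no GH female had digit 3 and no SI male digit 4), limma-voom (limma 3.58.1) with quality weights, removal of length and GC trends by lowess (span 0.3), all groups in 1 fit, SI males 25, 33 and 39 left out, and each mouse left out. Fits with 1 to 5 surrogate variables, and those without both the 3 males and surrogate variables, were added after seeing the data. Depth was 18809307 to 100844898 counts. An SD is the spread between mice. The SE of a Log2FC was its size divided by the square root of edgeR's quasi-likelihood F statistic. This SE depended on the model and is not the plain spread between mice. For Map2 in females it was 0.063, and 0.092 without surrogate variables. No pair of libraries of a group agreed within counting noise (chi-square per degree of freedom 9.288 or more), so none was taken for a repeat of another.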

Additional observations from a re-analysis of the deposited data

Results flagged for a closer look

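Of 52 sets of values, each of 1 measure in 1 group of mice, 1 had a single value far from the rest. This was Map1b in SI females, where SI 45 had 1188 CPM while the other 7 SI females had 621 to 797 CPM. Chance alone marks about 1 in 20 such sets, and the sets share the same mice. The same library had a length slope of 0.166, the highest among females, and the lowest Map2 level of the SI females, 834 CPM, while its Map1a level, 1643 CPM, was the highest of that group. The part of the length slope in the Map1b value was not tested.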

How the results depend on the processing

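In females, 1 member was called (Map2), and it was still 1 with DESeq2 size factors, other filters, removal of length and GC trends, or 1, 2, 4 or 5 surrogate variables. The number was 3 with DESeq2 (Map2, Map1a and Map4), 3 with limma-voom (Map2, Map1a and Ttbk1), 2 with all groups in 1 fit (Map2 and Map1a), 0 without surrogate variables and 0 with the position digit. It ranged from 0 to 4 with single mice left out and surrogate variables estimated again: 0 without SI 45, 49, 63 or 68 or GH 48, 54 or 71, 2 without SI 41, 3 without SI 52 or GH 46 and 4 without GH 78. The Log2FC of Map2 in females stayed between -0.44 and -0.22 in all these fits. In males, 0 members were called, 1 with DESeq2 (Ttbk1), and 0 to 6 with single mice left out, with 6 without SI 27 (Map2, Map1a, Map4, Ttbk1, Ttbk2 and Mapt) and 1 without SI 38 (Ttbk1). Without SI 27, 2414 of all genes were called, with 128 without SI 38 and 44 with DESeq2, against 0 by edgeR with all males. The Log2FC of Map2 in males ranged from -0.64 to -0.10 and that of Ttbk1 from -0.59 to -0.19. Between GH females and GH males, 0 members were called, and 1 (Map2) with at least 10 counts in every library, 1 with limma-voom and 1 with all groups in 1 fit. With single mice left out there were 0 to 3, namely Map2 without GH 1 or 78, Map2 and Map4 without GH 46, and Map2, Map4 and Map1b without GH 24. Without GH 1, 78, 46 and 24, calls among all genes numbered 703, 565, 1336 and 2871, against 187 with all GH mice. They numbered 356 with at least 10 counts in every library, 1072 with limma-voom and 1035 with all groups in 1 fit. The interaction called 0 members in every fit. The difference of the Map1a to Map1b log2 ratio ranged from 0.179 to 0.271 with single mice left out, passing the adjusted threshold without GH 24 (0.255, exact permutation, adjusted p = 0.0455) or GH 71 (0.271, exact permutation, adjusted p = 0.026). That of Ttbk1 to Ttbk2 ranged from -0.057 to 0.029 and that of Mark1 to Mark2 from -0.017 to 0.018, both with either sign and within the spread between mice. The number of all genes called in females was 624 by edgeR, 1262 with DESeq2, 838 with limma-voom, 510 with all groups in 1 fit, 88 to 1427 with single mice left out, and 0 without surrogate variables or with the position digit. The causes of these changes were not tested. No paired analysis was possible because the numbers are those of single mice and no number occurs in more than 1 group.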
